A study of Mus musculus with 14 samples.

Results

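The ATF4 amino acid stress response was followed through 10 genes in mouse adipose tissue: Atf4 itself, Ddit3, Asns, Phgdh, Psat1, Shmt2, Mthfd2, Trib3, Chac1 and Sesn2. They were taken by name from a gene-level table of 54955 symbols or unnamed IDs, and all 10 were measured and tested. The rule that took them used names and no values, but the 10 genes were chosen with earlier results of these data known. The series compared 7 adipose libraries labelled KO, from C57BL/6 mice with the genotype ko-dectin1 (replicates 1 to 7), with 7 labelled WT, from wild type C57BL/6 mice (replicates 3 to 9). All mice were at postnatal week 21, and no treatment is named. Dectin-1 is the β-glucan receptor of myeloid cells, encoded by Clec7a. The labels name neither the fat depot nor the sex nor the targeted allele, and nothing in them ties each library to a separate mouse, so p-values measure the spread between these libraries.

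ATF4 is a transcription factor whose protein is made when translation initiation factor eIF2 is phosphorylated, for instance by the kinase GCN2 when amino acids are scarce or by PERK when proteins misfold in the endoplasmic reticulum. It pairs with C/EBP factors and switches on genes for amino acid synthesis and uptake, for one-carbon metabolism and for feedback on growth. Much of its control is at translation, so the Atf4 transcript need not follow the activity of the protein. In fat, where serine and glycine feed one-carbon units and antioxidant defence, these enzymes are part of ordinary metabolism as well as of stress.

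TPM, the unit of every level here, is the share of a library's transcripts that a gene holds after scaling for its length. Each library had 13487 to 15562 genes with a level of at least 1 TPM. Clec7a, the targeted gene, stood at 6.94 ± 2.61 TPM in KO and 10.99 ± 5.99 TPM in WT (SD, n = 7 each; limma adjusted p = 0.59), so it did not separate the groups, and KO and WT are the labels of the libraries throughout. Cd79a, part of the B-cell antigen receptor, did not exceed 1.52 TPM in KO replicate 7, WT replicate 4 and WT replicate 7 and was at 177 TPM or more in the other 11 libraries, so values are also given for those 11. Markers of adipocytes were present in every library: the 19 markers summed to between 18221.7 and 83418.1 TPM in KO and between 44263.1 and 87593.0 TPM in WT.

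By the test across all 14719 genes (limma-trend on log2(TPM + 1), Benjamini-Hochberg adjusted p under 0.05), 0 of the 10 genes were called, 0 higher and 0 lower. The background was 3 of 14719 genes (0.0204%). At an unadjusted p under 0.05, 5 of the 10 had lower values in KO (Asns, Phgdh, Psat1, Sesn2 and Chac1), where 6.74% of all genes tested did, and 0 of 10 had higher values, where 4.67% did. The median log2 difference of the 10 was -0.43, beside 0.04 over all genes tested, whose 10th and 90th percentiles were -0.40 and 0.49. The genes did not differ as 1 block, and the groups overlapped in all 10 (0.211% of all genes tested lay below WT without overlap). Asns, Phgdh, Psat1, Trib3, Chac1 and Sesn2, 6 of the 10, had lower values in KO, where 45.4% of all genes tested did. Atf4 and Ddit3 had slightly higher means in KO, and Shmt2 and Mthfd2 varied mainly between libraries within each group.

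**Figure D1:**
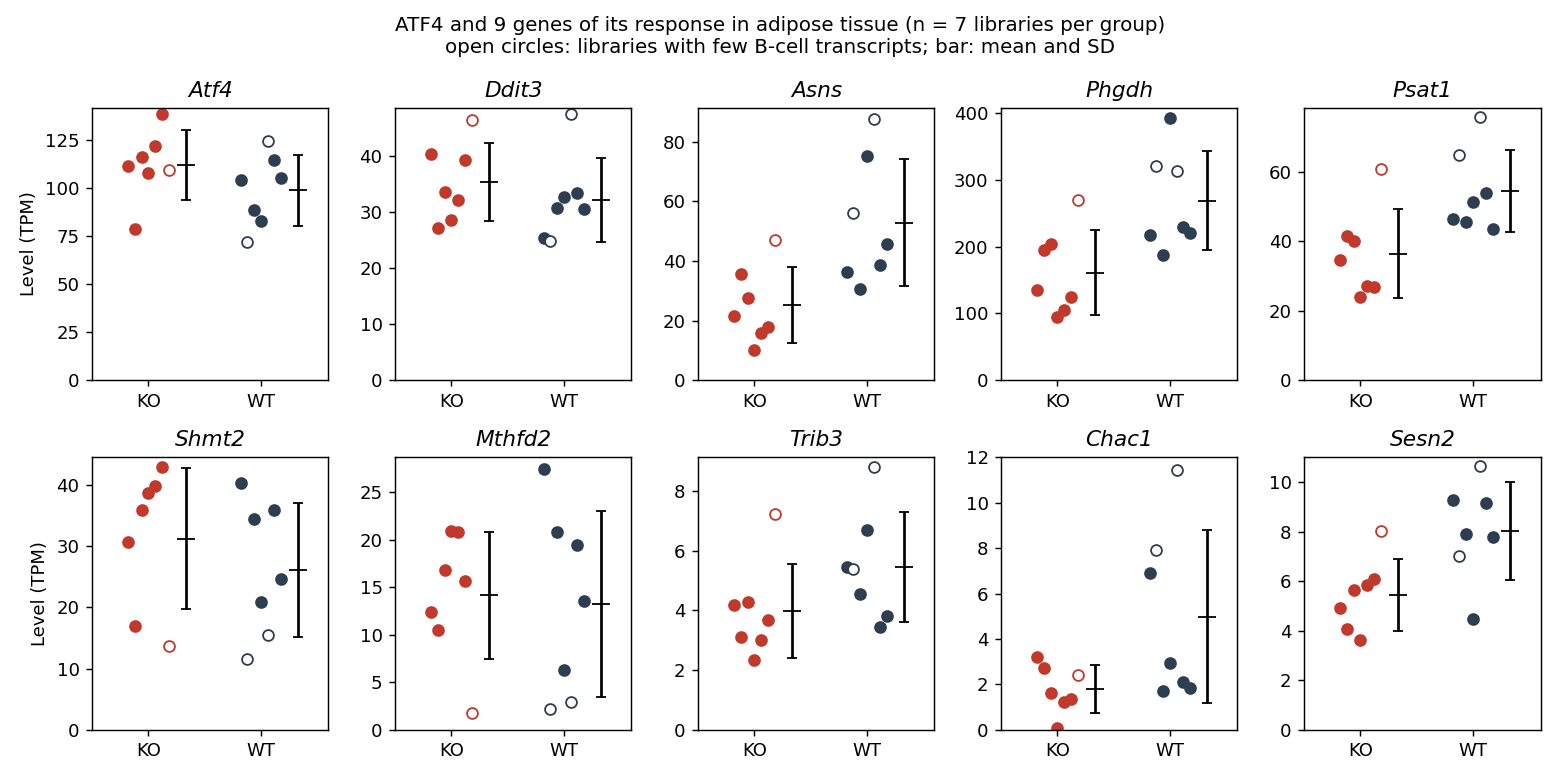
Level of each of the 10 genes in TPM (vertical axis, from 0) in 7 KO and 7 WT libraries; each circle is a library, open circles are the 3 libraries with few B-cell transcripts, and the bar beside each group is its mean and SD. Asns averaged 25.2 TPM in KO and 52.9 TPM in WT, while Atf4 averaged 112 TPM in KO and 98.95 TPM in WT.

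Ordered by their mean TPM over the 14 libraries, the levels ran from Phgdh (215 TPM) through Atf4 (105.5), Psat1 (45.5), Asns (39.03), Ddit3 (33.7), Shmt2 (28.7), Mthfd2 (13.7), Sesn2 (6.75) and Trib3 (4.71) to Chac1 (3.38). Within single libraries Atf4 exceeded Psat1 and Shmt2 exceeded Mthfd2 in all 14. Sesn2 exceeded Trib3 in 13 of 14, and the remaining neighbours kept their order in 7 to 11 of 14, with Ddit3 above Shmt2 in 7. The highest library was 1.92 times the lowest for Atf4 and 1.91 times for Ddit3, but 8.56 times for Asns and 15.6 times for Mthfd2. The widest span, 163.6 times, was that of Chac1 and rested on a lowest value of 0.07 TPM.

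Letters of the element to which ATF4 and its C/EBP partners bind were looked for in RefSeq promoter windows (build GRCm38.p6, 250 bases before to 50 bases after each start), which held all 10 genes in 11 windows. TGATGNAA, read on both strands, was found in the windows of 3 of the 10 genes (Asns, Chac1 and Trib3) and in 4.51% of 27025 genes with a window. A second form, TGNNGCAAT, was chosen after the windows had been read and was found in 3 of the 10 (Chac1, Psat1 and Trib3) and in 2.46% of all genes. The stretches around the matches before the start are shown for these 4 genes. Their log2 differences between KO and WT were -1.09 for Asns, -0.96 for Chac1, -0.61 for Psat1 and -0.38 for Trib3. Chac1 and Trib3 held both forms. Phgdh and Sesn2, with log2 differences of -0.78 and -0.48, held neither form. Neither did Atf4, Ddit3, Shmt2 and Mthfd2, with log2 differences of 0.18, 0.14, 0.26 and 0.27. Whether a match goes with the difference between KO and WT was not tested. Capitals mark the match, and each stretch is written 5′ to 3′ on the strand of the gene.
Asns, chr6:7693210-7693252, minus strand: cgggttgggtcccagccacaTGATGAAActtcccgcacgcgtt
Chac1, chr2:119351029-119351076, plus strand: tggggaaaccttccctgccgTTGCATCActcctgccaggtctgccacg
Chac1, chr2:119350992-119351020, plus strand: TGACGCAATctgactcgcccttgctgcat
Psat1, chr19:15925167-15925215, minus strand: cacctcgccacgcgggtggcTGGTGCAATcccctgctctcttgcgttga
Trib3, chr2:152344065-152344113, minus strand: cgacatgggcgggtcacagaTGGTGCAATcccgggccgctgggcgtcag
The Asns match lies 16 bases before the RefSeq start at its nearer edge, and that of Psat1 lies 128 bases before it. In the first Chac1 stretch the match reads on the strand opposite to the gene. The TGATGNAA match of Trib3 lies after the start and is not printed. Matches to the different forms did not overlap at any of these sites. A match is a description of the letters in the window, not a site shown to be bound.

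The transcription factors of the response did not separate the groups. Atf4 lay between 78.7 and 138.7 TPM in KO (median 111.3) and between 72.2 and 124.7 TPM in WT (median 104.3). The groups overlapped over most of their range. The log2 difference was 0.18 ± 0.14 (SE; 95% interval -0.13 to 0.49; limma adjusted p = 0.63; exact permutation p = 0.22). Ddit3 encodes CHOP, a factor induced by ATF4 that promotes cell death under lasting stress. It lay between 27.1 and 46.4 TPM in KO (median 33.5) and between 24.8 and 47.4 TPM in WT (median 30.6). Its log2 difference was 0.14 ± 0.16 (SE; 95% interval -0.19 to 0.47; limma adjusted p = 0.72). Both intervals hold differences of either sign, and neither reaches a change of 0.50 on the log2 scale. A second row of the same name, a model of 105 bases, was at 0 in every library and adds nothing to Ddit3.

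The synthetic enzymes had the smallest p-values of the 10 genes. Asns encodes asparagine synthetase, which makes asparagine from aspartate and glutamine. It lay between 10.2 and 47.2 TPM in KO (median 21.7) and between 30.6 and 87.6 TPM in WT (median 45.6). In 5 of 7 KO libraries Asns was below the lowest WT library, and the exceptions were KO replicates 2 and 7. The mean was 25.2 ± 12.7 TPM in KO and 52.9 ± 21.4 TPM in WT (SD, n = 7 each), with a log2 difference of -1.09 ± 0.31 (SE; 95% interval -1.76 to -0.42; limma adjusted p = 0.23; exact permutation p = 0.0082). The adjusted p did not pass the threshold.

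Phgdh and Psat1 encode the first steps of serine synthesis from a glycolytic intermediate. Phgdh, the most abundant of the 10, lay between 95.1 and 269.6 TPM in KO (median 134.9) and between 188.1 and 393.3 TPM in WT (median 229.7). In 4 of 7 KO libraries it was below the lowest WT library. The mean was 161 ± 63.7 TPM in KO and 269 ± 74.4 TPM in WT (SD, n = 7 each), with a log2 difference of -0.78 ± 0.24 (SE; limma adjusted p = 0.26; exact permutation p = 0.013). Its listed pseudogene Phgdh-ps1 reached 0.09 TPM at most.

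Psat1 lay between 23.9 and 61.0 TPM in KO (median 34.5) and between 43.6 and 75.9 TPM in WT (median 51.2). In 6 of 7 KO libraries it was below the lowest WT library, and only KO replicate 7 exceeded any WT value. The log2 difference was -0.61 ± 0.20 (SE; limma adjusted p = 0.28; exact permutation p = 0.015). Among the 11 libraries with many B-cell transcripts Psat1 was the 1 gene of the 10 whose groups did not overlap, with 23.9 to 41.7 TPM in 6 KO and 43.6 to 53.8 TPM in 5 WT libraries (exact permutation p = 0.0087; 0.972% of all genes tested lay below WT without overlap there). In those 11 the log2 difference was -0.58 ± 0.16 (SE, limma adjusted p = 0.27), close to that in all 14 and short of the threshold. There Asns, Phgdh and Sesn2 had log2 differences of -1.07 ± 0.29, -0.81 ± 0.24 and -0.52 ± 0.20 (SE, limma adjusted p = 0.27, 0.29 and 0.43). Their exact permutation p-values over the 11 were 0.0087, 0.017 and 0.028. Trib3 was at -0.37, while Atf4, Ddit3 and Shmt2 were at 0.17, 0.12 and 0.11.

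The mitochondrial folate enzymes had wide ranges within both groups. Shmt2 takes a carbon from serine to make glycine, and Mthfd2 oxidises that one-carbon unit. Shmt2 lay between 13.6 and 43.0 TPM in KO (median 35.9) and between 11.5 and 40.3 TPM in WT (median 24.6), with a log2 difference of 0.26 ± 0.32 (SE, limma adjusted p = 0.73) that turned to -0.15 with the adipocyte score as a covariate. Mthfd2 lay between 1.76 and 20.96 TPM in KO (median 15.7) and between 2.17 and 27.4 TPM in WT (median 13.6), with a log2 difference of 0.27 ± 0.57 (SE, limma adjusted p = 0.85). The lowest values of both genes came from KO replicate 7 and WT replicates 4 and 7. Those 3 libraries held 1.76 to 2.91 TPM of Mthfd2 against 6.23 to 27.4 TPM in the other 11, and 11.5 to 15.5 TPM of Shmt2 against 17.0 to 43.0 TPM. Without the 3 libraries Mthfd2 averaged 16.2 ± 4.29 TPM in KO (n = 6) and 17.5 ± 7.99 TPM in WT (n = 5), and its log2 difference was -0.0046 ± 0.31 (SE, limma adjusted p = 0.998). The B and plasma cell score, the mean log2(TPM + 1) of 12 markers, was 0.95 to 1.64 in the same 3 libraries and 5.52 or more in the rest. With this score as a covariate the log2 difference was -0.0024 ± 0.16 for Shmt2 and -0.23 ± 0.22 for Mthfd2 (SE, limma adjusted p = 0.997 and 0.73). The part of these cells in the levels themselves was not tested.

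The feedback and stress effectors were of low level. Trib3 is a pseudokinase that restrains ATF4 and CHOP as well as insulin signalling. It lay between 2.34 and 7.23 TPM in KO (median 3.69) and between 3.44 and 8.82 TPM in WT (median 5.38), with a log2 difference of -0.38 ± 0.22 (SE, limma adjusted p = 0.52). It was -0.16 with the adipocyte score as a covariate and -0.18 with library weights. Chac1, which degrades glutathione, lay between 0.07 and 3.20 TPM in KO (median 1.61) and between 1.72 and 11.5 TPM in WT (median 2.93). Its mean of 4.97 TPM in WT rested on WT replicates 3, 4 and 7, at 6.89, 7.92 and 11.5 TPM, while the other 4 were at 2.93 TPM or less. The log2 difference was -0.96 ± 0.39 (SE, limma adjusted p = 0.40) and -0.60 ± 0.36 (limma adjusted p = 0.60) over the 11 libraries rich in B-cell transcripts, and over all alternatives it ran from -1.52 to -0.54. Sesn2, a leucine sensor that holds back the growth kinase complex mTORC1, lay between 3.61 and 8.02 TPM in KO (median 5.66) and between 4.46 and 10.7 TPM in WT (median 7.89). Its log2 difference was -0.48 ± 0.19 (SE, limma adjusted p = 0.37; exact permutation p = 0.023), and the groups overlapped.

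A few libraries held the extremes of several genes at once. KO replicate 4 was the lowest of all 14 libraries for Asns, Phgdh, Psat1, Trib3, Chac1 and Sesn2, 6 of the 10. WT replicate 7 was the highest for Asns, Psat1, Trib3, Chac1, Sesn2 and Ddit3, also 6 of the 10. KO replicate 4 was not the lowest for the remaining genes: its Ddit3, at 28.5 TPM, was above only KO replicate 2 in its group, while its Mthfd2, at 20.96 TPM, was the highest of the KO group.

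**Figure D2:**
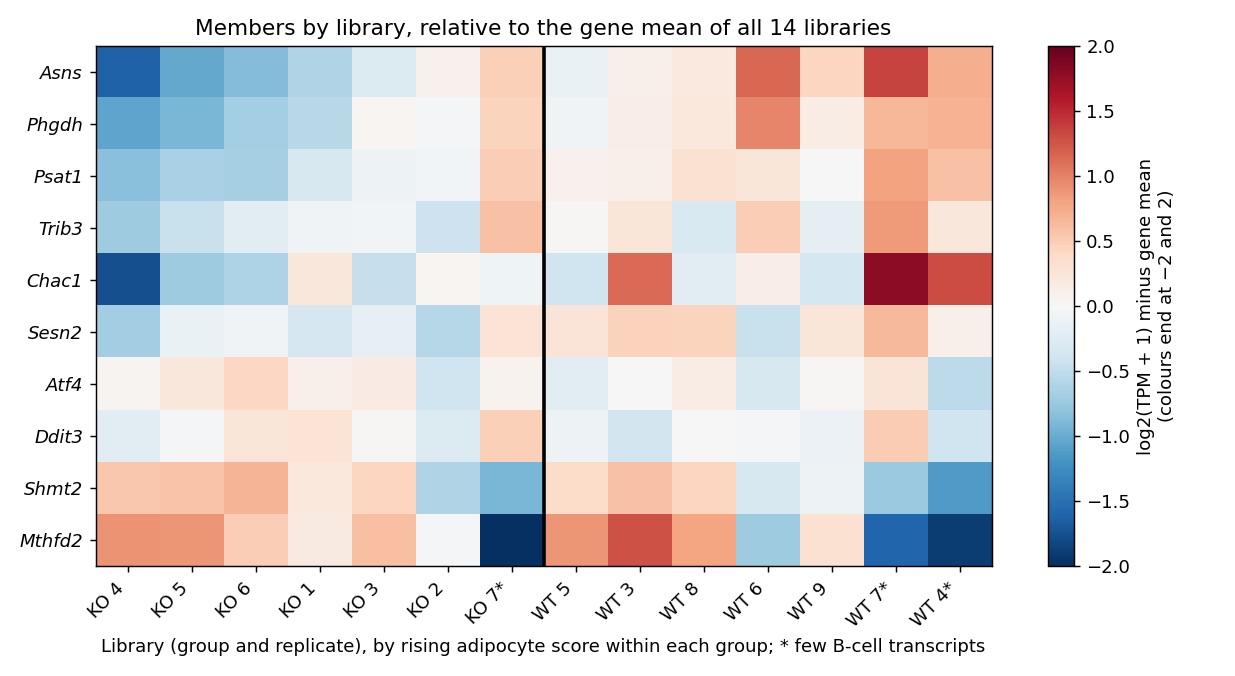
The 10 genes (rows) in 14 libraries (columns), as log2(TPM + 1) minus the mean of the gene over all libraries; the black line parts KO, left, from WT, and within each group libraries are ordered by rising adipocyte score. Asns, Phgdh and Psat1 go from blue to red with the score within KO, and Shmt2 and Mthfd2 run the other way.

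Some of the genes followed the adipocyte markers, others did not. The adipocyte score, the mean log2(TPM + 1) of 19 markers such as Adipoq and Cidec, ranged from 7.98 to 10.15 in KO and from 9.16 to 10.09 in WT, and 17 of the 19 markers had lower values in KO, with 0 passing the test. In KO libraries Asns followed the order of the score without exception, at 10.2 TPM in the library with the lowest score and 47.2 TPM in that with the highest (n = 7; Pearson r = 0.99, Spearman rho = 1.00, exact permutation p = 0.0004 for both, the smallest possible for rho; adjusted p = 0.0040 and 0.0079 over 20 relations). Without the libraries with the lowest and highest score, KO replicates 4 and 7, r was 0.97. Phgdh and Psat1 also followed the score in KO, with r = 0.98 and 0.95 (n = 7; exact permutation p = 0.0004 and 0.0016, adjusted p = 0.0040 and 0.011; rho = 0.96 for both, exact p = 0.0028, adjusted p = 0.019), and r = 0.97 and 0.93 without the same 2 libraries. In the 6 KO libraries with many B-cell transcripts r was 0.98 for Asns, 0.97 for Phgdh and 0.95 for Psat1. How many of all genes tested followed the score as closely was not counted. The relations, here and in WT, are thus not shown to be particular to these genes.

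In WT libraries, whose scores covered a narrower range, r was 0.75 for Asns, 0.62 for Phgdh and 0.83 for Psat1 (n = 7; exact permutation p = 0.060, 0.15 and 0.026; adjusted p = 0.11, 0.23 and 0.066; rho = 0.82, 0.71 and 0.57, exact p = 0.034, 0.088 and 0.20), none past the threshold after adjustment. Without WT replicates 4 and 7, which are the libraries with the highest score and with few B-cell transcripts, r was 0.02 for Psat1, so that its relation rests on those libraries, and was 0.64 and 0.44 for Asns and Phgdh. Whether the relation differs between KO and WT was not tested. Mthfd2 ran opposite to the score, with r = -0.78 in KO and -0.92 in WT (n = 7 each; exact permutation p = 0.013 and 0.0056, adjusted p = 0.044 and 0.022; rho = -0.89 and -0.93, exact p = 0.012 and 0.0067, adjusted p = 0.049 and 0.034) and r = -0.70 and -0.64 without the 2 libraries farthest from the median score. Shmt2 did likewise in WT, with r = -0.93 (exact permutation p = 0.0048, adjusted p = 0.022) and r = -0.75 without those 2, though its rho of -0.86 did not pass (exact p = 0.024, adjusted p = 0.079), and it had r = -0.80 in KO (adjusted p = 0.068). In KO r was 0.80 for Trib3, 0.77 for Chac1, 0.52 for Sesn2 and 0.42 for Ddit3, and in WT it was 0.48, 0.64, 0.09 and 0.33, none past the threshold (adjusted exact permutation p of 0.066 or more). Atf4 had no relation past the threshold either (r = -0.36, exact permutation p = 0.44, in KO; r = -0.05, exact permutation p = 0.91, in WT). All of these values are shares of the same library totals, and in whole tissue fewer cells of a type and less RNA per cell cannot be told apart.

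**Figure D3:**
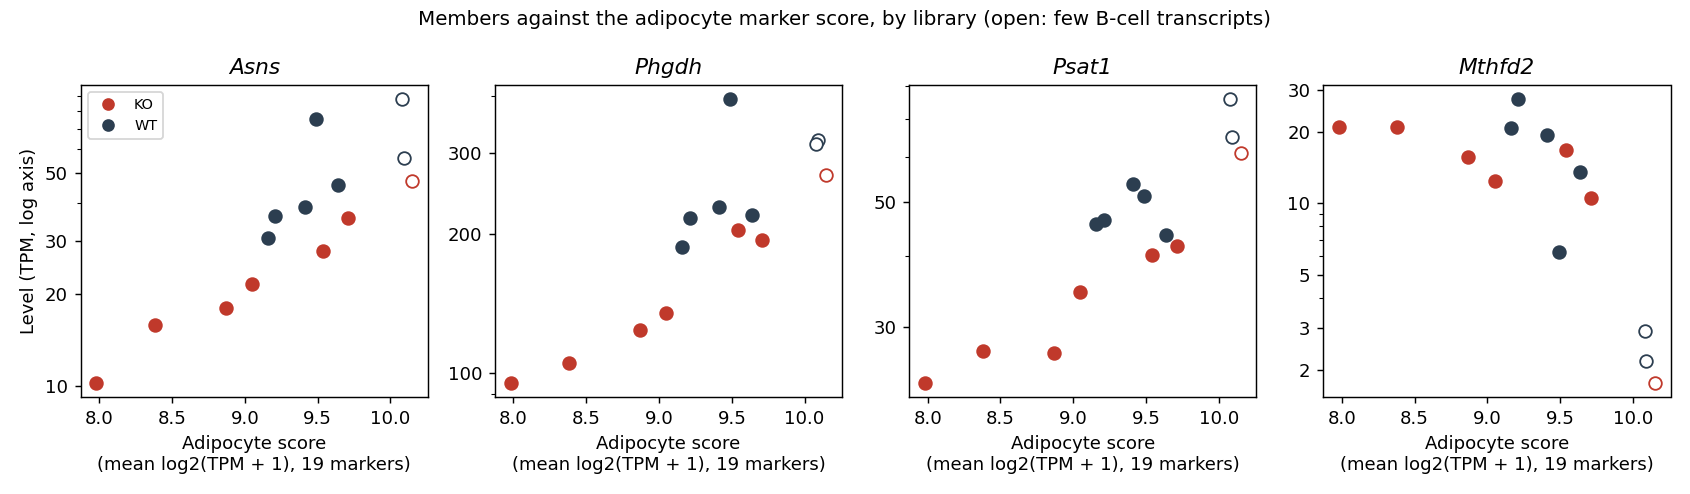
Level of Asns, Phgdh, Psat1 and Mthfd2 in TPM (vertical, log axis) against the adipocyte score (horizontal) of the same library; red circles are KO, dark circles WT, and open circles the 3 libraries with few B-cell transcripts. Asns in KO climbs from 10.2 to 47.2 TPM as the score goes from 7.98 to 10.15, and WT replicates 4 and 7, at scores of 10.09 and 10.08, hold 55.96 and 87.6 TPM.

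With the adipocyte score as a covariate the differences of the synthetic enzymes were smaller and kept their sign. That of Asns was -0.63 ± 0.16 (SE; 95% interval -0.98 to -0.28; limma adjusted p = 0.20), that of Phgdh -0.44 ± 0.14 (limma adjusted p = 0.27) and that of Psat1 -0.32 ± 0.10 (limma adjusted p = 0.29). In each the SE was also smaller than without the score. Scores of the 5 WT libraries with many B-cell transcripts ran from 9.16 to 9.64. KO replicate 3 lay within that range at 9.54, KO replicate 2 just above it at 9.71 and KO replicate 1 just below it at 9.05. Asns stood at 27.7, 35.5 and 21.7 TPM in KO replicates 3, 2 and 1 and between 30.6 and 75.3 TPM in the 5 WT libraries. In the same order Phgdh stood at 204.5, 194.55 and 134.9 TPM, against 188.1 to 393.3 TPM in WT. Psat1 stood at 40.1, 41.7 and 34.5 TPM, against 43.6 to 53.8 TPM in WT. Among the 3 libraries with few B-cell transcripts, all at scores of 10.08 to 10.15, Asns was at 47.2 TPM in the KO library and at 55.96 and 87.6 TPM in the WT libraries. Phgdh was at 269.6 TPM in that KO library and at 320.4 and 313.9 TPM in the WT libraries.

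Weighting the libraries by their agreement with the rest changed the calls. With limma's library weights, which ran from 0.263 (WT replicate 6) to 3.8 (WT replicate 8), 4 of the 10 genes passed, all lower in KO: Asns (log2 difference -1.02 ± 0.22, SE; limma adjusted p = 0.022), Phgdh (-0.77 ± 0.18, adjusted p = 0.025), Psat1 (-0.67 ± 0.14, adjusted p = 0.020) and Sesn2 (-0.60 ± 0.13, adjusted p = 0.019). The same fit called 823 of all genes tested (5.59%), 575 of them lower in KO (3.91%), against 3 without weights. Over all alternatives run, the adjusted p ranged from 0.022 to 0.51 for Asns, from 0.025 to 0.54 for Phgdh, from 0.020 to 0.58 for Psat1 and from 0.019 to 0.64 for Sesn2.

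**Figure D4:**
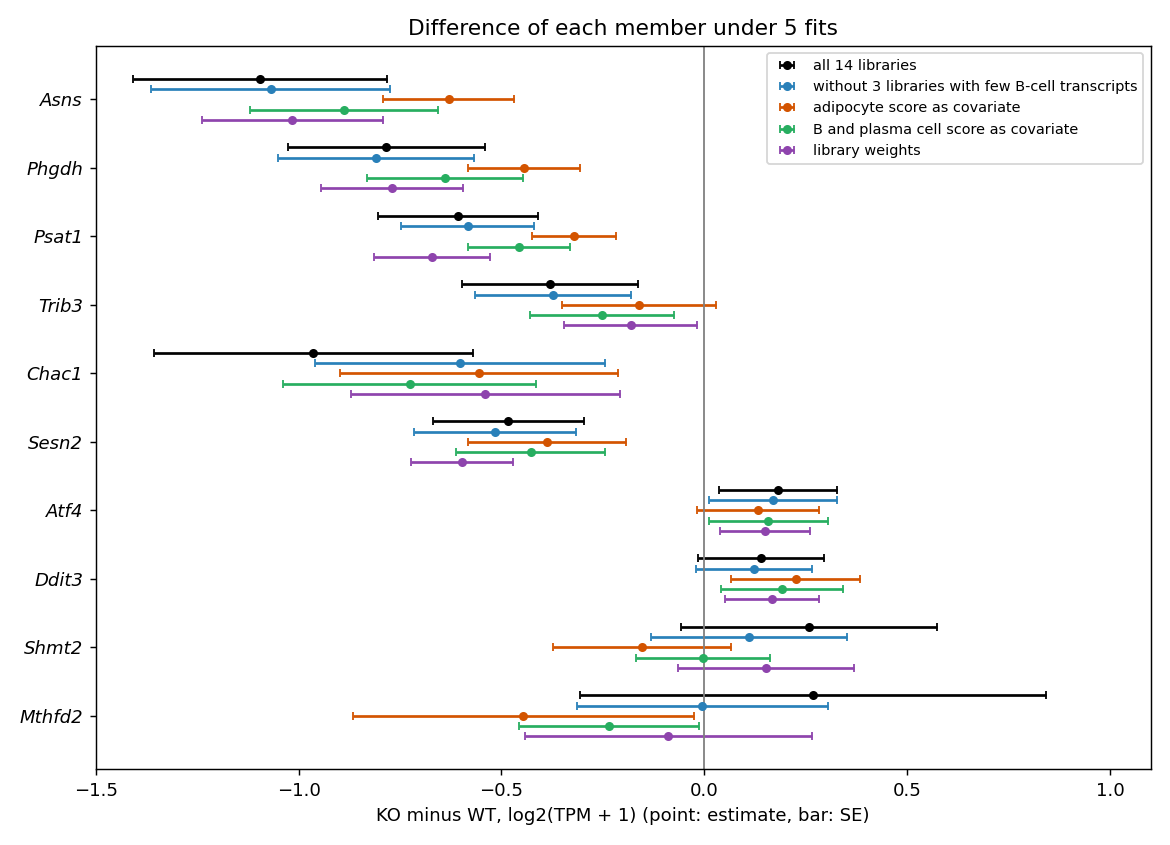
KO minus WT difference of each gene on the log2(TPM + 1) scale (horizontal; point, estimate; bar, SE) under 5 fits, named in the legend. Asns, Phgdh, Psat1, Trib3, Chac1 and Sesn2 lie left of 0 in all 5, with Asns between -1.09 and -0.63, and Mthfd2 lies on both sides.

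Other sources of these transcripts were looked at by their markers. Asns is also abundant in the exocrine pancreas. The 14 markers of pancreatic acinar cells summed to between 135.7 and 177.7 TPM in KO and between 111.1 and 386.0 TPM in WT, all 11 tested had lower values in KO with 0 passing, and Ptf1a, the factor that defines acinar cells, was at 0 in every library. With the acinar score as a covariate the log2 difference of Asns was -1.17 (limma adjusted p = 0.29), beside -1.09 without it. Proliferation markers, which accompany one-carbon enzymes in dividing cells, summed to between 68.2 and 253.8 TPM in KO and between 48.5 and 245.2 TPM in WT, with 11 of 11 tested higher in value in KO and 0 passing. Their part in Shmt2 and Mthfd2 was not tested. Of the other marker lists, with 0 genes called in any, skeletal muscle had 11 of 11 tested lower in value in KO (26.3 to 9041.1 TPM summed in KO and 43.0 to 27605.9 TPM in WT), macrophages 13 of 15 (632.2 to 1854.6 and 468.7 to 2466.1 TPM) and adipose progenitors 9 of 11 (691.0 to 1487.4 and 886.0 to 2768.5 TPM). B and plasma cells had 12 of 12 higher in value in KO (202.2 to 3361.5 TPM in KO and 93.1 to 2794.4 TPM in WT), T cells 14 of 14 (39.5 to 1722.9 and 10.4 to 1746.4 TPM), hepatocytes 9 of 9 (36.2 to 2449.1 and 18.6 to 5571.3 TPM) and endothelium 8 of 9 (318.3 to 659.8 and 350.3 to 547.0 TPM). With the B and plasma cell score as a covariate the log2 difference of Asns was -0.89, and with the skeletal muscle score it was -1.02 (limma adjusted p = 0.13 and 0.44). The part of the remaining cell types was not tested.

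The rest of the pathway was read from 9 lists of 105 other genes, all measured, of which 100 passed the filter on low values. None was called in either direction (limma, adjusted p under 0.05), and at an unadjusted p under 0.05, 7 of the 100 had lower values in KO, beside 6.74% of all genes tested, and 1 of the 100 had a higher value, beside 4.67%. In all, 53 of the 100 had lower and 47 higher values.

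Upstream, the list of eIF2 kinases, phosphatase subunits and eIF2 had a median log2 difference of 0.08 (7 of 12 higher). Eif2b5, a subunit of the exchange factor that phosphorylated eIF2 blocks, stood at 32.7 ± 3.75 TPM in KO and 42.97 ± 10.8 TPM in WT (SD, n = 7 each; log2 difference -0.36 ± 0.14, limma adjusted p = 0.36). Gcn1, the ribosome-bound activator of GCN2, had a log2 difference of 0.22 ± 0.14 (limma adjusted p = 0.56). Among the partner transcription factors 9 of 10 had lower values (median -0.25), with Cebpa at -0.48 ± 0.27 and Cebpd at -0.30 ± 0.18 (limma adjusted p = 0.51 and 0.53). Cebpa is also on the adipocyte list.

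Amino acid transporters had a median log2 difference of -0.11 over 10 tested of 12. Slc1a5, a glutamine carrier, stood at 643 ± 286 TPM in KO and 916 ± 248.9 TPM in WT (SD, n = 7 each; log2 difference -0.59 ± 0.28, limma adjusted p = 0.44), and Slc43a1, a carrier of large neutral amino acids, had a log2 difference of -0.53 ± 0.26 (limma adjusted p = 0.45). Serine, glycine, proline and one-carbon enzymes outside the 10 had a median of -0.18 over 13 tested of 14. Aldh1l1, the cytosolic enzyme that oxidises formyl-tetrahydrofolate, stood at 60.2 ± 30.4 TPM in KO and 99.1 ± 22.1 TPM in WT (SD, n = 7 each; log2 difference -0.86 ± 0.31, limma adjusted p = 0.33). Pycrl, a proline synthesis enzyme, had a log2 difference of -0.37 ± 0.13 (limma adjusted p = 0.31). Transsulfuration and glutathione genes had a median of -0.20, with Gclm, the modifier subunit of the enzyme that starts glutathione synthesis, at -0.29 ± 0.15 and Gpt2, mitochondrial alanine aminotransferase, at -0.64 ± 0.32 (limma adjusted p = 0.46 for both).

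Aminoacyl-tRNA synthetases, many of which ATF4 induces, were evenly spread, with 10 of 20 lower and a median log2 difference of 0.00. Mars1 and Sars, which charge methionine and serine tRNAs, had log2 differences of -0.30 ± 0.12 and -0.23 ± 0.10 (limma adjusted p = 0.41 for both). Among growth control and secreted targets Eif4ebp1, a brake on cap-dependent translation, stood at 557 ± 275 TPM in KO and 861 ± 281 TPM in WT (SD, n = 7 each; log2 difference -0.71 ± 0.31, limma adjusted p = 0.41). Bbc3, which encodes the cell death protein PUMA, stood at 15.6 ± 1.83 TPM in KO and 11.1 ± 2.86 TPM in WT (log2 difference 0.48 ± 0.15, limma adjusted p = 0.27). The hormones Fgf21 and Gdf15 did not pass the filter, at 1.78 and 2.20 TPM or less in every library.

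Of the paralogs of Trib3 and Sesn2, 3 of 4 had higher values in KO, with Trib2 at 0.67 ± 0.32 and Sesn1 at 0.31 ± 0.23 on the log2 scale (limma adjusted p = 0.45 and 0.61). Trib1 was at -0.05 ± 0.18 (limma adjusted p = 0.91). The other arms of the unfolded protein response were balanced, with 7 of 15 lower and a median log2 difference of 0.00. Calr, the chaperone calreticulin, stood at 266 ± 27.6 TPM in KO and 341 ± 50.5 TPM in WT (SD, n = 7 each; log2 difference -0.35 ± 0.12, limma adjusted p = 0.31), and Xbp1, the factor of the IRE1 arm, had a log2 difference of -0.45 ± 0.22 (limma adjusted p = 0.45).

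**Figure D5:**
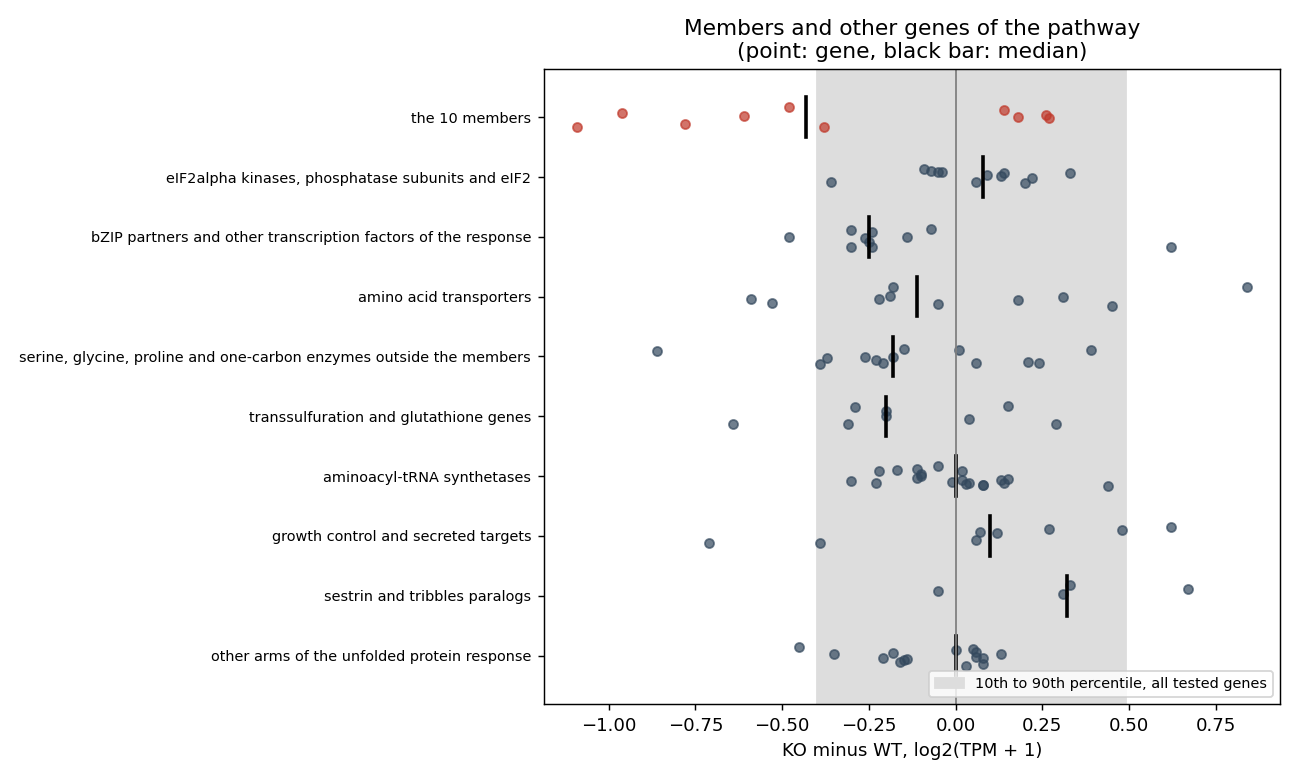
KO minus WT difference on the log2(TPM + 1) scale (horizontal) of the 10 genes (red) and of the tested genes of 9 other lists of the pathway (dark), 1 point per gene with the median as a black bar; the grey band spans the 10th to 90th percentile of all genes tested, -0.40 to 0.49. The 10 genes have a median of -0.43, and the medians of the other lists lie between -0.25 and 0.32.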

How the data were processed

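RNA of adipose tissue was made into libraries with an Illumina TruSeq kit, per the labels' protocols. The authors deposited 1 table of 56552 rows with a TPM value for each of 14 libraries. Bowtie 0.12.2 and the builds mm8 and mm9 are listed without a role, per the submitters' processing notes; the program behind the TPM values is not given in the sources used here. TPM keeps no read counts, so depth is unknown and no counting interval is given. Rows of 1 symbol were summed. Testing took the genes that reached 1 TPM in 7 or more libraries, as log2(TPM + 1), a scale that understates changes of low genes, by limma-trend (limma 3.58.1, R 4.3.3, robust, 2-sided), with Benjamini-Hochberg adjustment over all 14719 tested. Permutation tests were exact and 2-sided. The named genes were the 10 genes and, of each other list without a call, the 2 with the smallest p. The test was also run on simulated data with known changes and missed a part of them. A gene that was not called is thus not shown to be unchanged. The 10 genes, the lists and the 3 libraries set apart were chosen with earlier results of these data known. Relations to the adipocyte score were added later.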

Additional observations from a re-analysis of the deposited data

Results flagged for a closer look

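Over the 10 genes and both groups, 20 sets of 7 libraries were searched for a library far from the others. Chance alone marks about 1 set in 20 where sets are unrelated, but the sets here share the same libraries. The rate in these data was not tested. Trib3 was at 7.23 TPM in KO replicate 7, where the next KO library was at 4.27 TPM, a gap of 0.605 of the range of the group. Ddit3 was at 47.4 TPM in WT replicate 7, where the next WT library was at 33.3 TPM, a gap of 0.626 of the range. Both libraries are among the 3 with few B-cell transcripts.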

How the results depend on the processing

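Of 31 alternatives, library weights changed the number of the 10 genes called, to 4; in the rest it was 0. Atf4, Asns, Ddit3, Trib3, Chac1, Psat1, Phgdh and Sesn2 kept their sign in every alternative that tested them (Trib3 and Chac1 could not be tested with a mean of 5 TPM required), over -0.53 to -0.16 for Trib3, -1.52 to -0.54 for Chac1, 0.11 to 0.35 for Atf4 and 0.07 to 0.24 for Ddit3. Mthfd2 turned to -0.0046 over the 11 libraries rich in B-cell transcripts, -0.026 without WT replicate 4, -0.089 with library weights, and -0.45, -0.23 and -0.32 with the adipocyte score, the B-cell score or both as covariates; Shmt2 turned to -0.15, -0.0024 and -0.097 with those covariates. With 1 library left out, the log2 difference of Asns ran from -1.27 to -0.92, of Phgdh from -0.92 to -0.67, of Psat1 from -0.74 to -0.52 and of Mthfd2 from -0.03 to 0.64. The count over all genes, 3 as reported (0 higher, 3 lower), was 8 with median-ratio scaling (3 higher, 5 lower), 18 with quantile normalization (12 higher, 6 lower), 6 rescaled without mitochondrial genes (2 higher, 4 lower), 1 without a filter, 1 with rows as deposited, 7, 24 and 13 with the adipocyte, B-cell or both scores, 0 with the muscle or acinar score, 0 without the 3 libraries and 823 with weights. It ran from 0 to 6 with 1 library left out: 0 when KO replicate 1, 5 or 6, or any WT replicate but 6, was left out, 1 for KO replicate 2, 2 for WT replicate 6, 3 for KO replicate 3 or 4 and 6 for KO replicate 7. The cause of these shifts was not tested. Replicate numbers 3 to 7 occur in both groups, but same-numbered libraries deviated together with correlations from -0.672 to 0.803, so the numbers were not taken as pairs; over those 10 libraries the count was 0 with and 0 without a replicate block, and 0 of the 10 genes were called in either. Depth is unknown, and values such as 0.07 TPM of Chac1 carry few digits.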

Other observations

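Genes of the same pathway that were low with Mthfd2 in KO replicate 7 and WT replicates 4 and 7 were picked out after their values were seen. Mthfd1l, the mitochondrial enzyme that releases formate after Mthfd2, was at 0.70 to 1.21 TPM in these 3 libraries and at 3.67 to 12.7 TPM in the other 11. Slc7a5, the leucine carrier of activated lymphocytes, was at 0.64 to 1.91 TPM against 2.79 to 13.4 TPM. Psph, which completes serine synthesis after Psat1, did not share the direction of Phgdh and Psat1: it averaged 15.03 ± 5.55 TPM in KO and 12.4 ± 2.04 TPM in WT (SD, n = 7 each; log2 difference 0.21 ± 0.18, limma adjusted p = 0.65), and its highest value, 26.7 TPM, was in a KO library.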
